A study of Mus musculus with 12 samples.

Results

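Cathepsins are the main proteases of the lysosome, and the transcripts of 10 mouse cathepsin genes are described here: Ctsa, Ctsb, Ctsc, Ctsd, Ctsh, Ctsj, Ctsk, Ctsl, Ctss and Ctsz. They were chosen by symbol from the 22364 gene symbols that all 3 expression tables of the study share, where 23 cathepsin genes were listed in all. The choice used measured values, because Ctsj was singled out as the gene among these 10 that rose most with PRDM16 in the MLL-AF9 cotransduction. Values from that experiment are therefore given as a description with no test. Tests are given for the other 2 experiments, which were not used to single out Ctsj. The members were, however, chosen with earlier results of these data known, so these tests may not be independent of the choice.

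RNA was sequenced from cultured bone marrow cells of C57BL/6 mice in 12 libraries, 2 in each of 6 groups. In the MLL-AF9 cotransduction, lineage-negative (Lin-) cells had received MLL-AF9 with PRDM16, or MLL-AF9 with PRDM16mut. In the E2A-HLF cotransduction, Lin- cells had received E2A-HLF with PRDM16, or E2A-HLF with PRDM16mut. Cells of these 4 groups were harvested after 10 days under G418 and puromycin. For the stable experiment, marrow cells that already carried MLL-AF9 received PRDM16 or PRDM16mut and were harvested after 10 days under puromycin alone. All 6 groups grew in IMDM medium containing 15% FBS, with IL3, IL6 and SCF each at 10 ng/ml. MLL-AF9 and E2A-HLF are fusion oncoproteins of acute leukaemia, and PRDM16 carries a PR domain and zinc fingers and is called a histone methyltransferase in the series title. The change in PRDM16mut, the promoter that drove it and the number of animals or cultures are not stated in the labels. Every group carried 1 of the 2 forms of PRDM16, so a rise with PRDM16 and a fall with PRDM16mut cannot be told apart. The same holds in bulk RNA for fewer cells of a type and less RNA per cell.

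Levels are in FPKM, which counts fragments relative to transcript length and to the size of the library, so they can be set side by side between genes. Differences are log2 fold changes of FPKM + 1, PRDM16 minus PRDM16mut, a scale that understates the change of low genes. The library total of FPKM was between 570872 and 683269, and relative depth between the replicates of a group was 0.914 to 1.17 except for the MLL-AF9 cotransduction with PRDM16, where it was 1.63. Prdm16 stood at 83.9 and 119 FPKM with PRDM16 in the MLL-AF9 cotransduction, against 29.5 and 30.1 FPKM with PRDM16mut. It was not called in the E2A-HLF cotransduction (limma adjusted p = 0.622) and was slightly lower with PRDM16 in the stable cells (log2 fold change -0.22, limma adjusted p = 0.0414), and reads of either form count toward it. The ribosomal precursor Rn45s was listed at 0 in both PRDM16 libraries of the MLL-AF9 cotransduction, against 1542 and 1554 FPKM in its PRDM16mut libraries. The MLL-AF9 cotransduction table also uses partly other gene symbols than the other 2 tables, such as Dcstamp for Tm7sf4, and whether its annotation differed is not stated. The part of these unequal values in the cathepsin differences was not tested. The labelled blood origin held: Ptprc, Kit, Cd34 and Myb summed to at least 103 FPKM in every library, and the 5 markers of committed lymphoid cells to at most 0.799 FPKM. The 4 progenitor list genes differed between the groups compared: in the MLL-AF9 cotransduction all 4 were lower with PRDM16, Kit at 5.29 and 6.07 FPKM, against 46.8 and 47.5 FPKM with PRDM16mut, and Cd34 at 5.38 and 4.59 FPKM, against 20.8 and 21.1 FPKM with PRDM16mut. With E2A-HLF, limma called 2 of the 4 lower, Cd34 and Myb, and in the stable cells 0 of 4, where each had an unadjusted p under 0.05, Ptprc higher and the other 3 lower. Of all genes, 42.7% had both PRDM16 libraries below both PRDM16mut libraries in the MLL-AF9 cotransduction. Limma called 21.1% lower with E2A-HLF, and 6.36% in either direction in the stable cells. The part of the progenitor shifts in the cathepsin differences was not tested.

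Most cathepsins are made as inactive precursors, carried to the lysosome by mannose 6-phosphate receptors and activated there by removal of a propeptide. Cathepsins B, C, H, J, K, L, S and Z are cysteine proteases of the papain family, cathepsin D is an aspartic protease and cathepsin A is a serine carboxypeptidase. In blood cells they degrade proteins taken up by macrophages, trim the invariant chain of MHC class II and activate the serine proteases of granules, while cathepsin J belongs to a rodent cluster of genes known from the placenta. Cystatins, stefins and the Ctla2 proteins inhibit the cysteine cathepsins.

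Promoter windows were found in the RefSeq table for 8 of the 10 genes, all but Ctsb and Ctsh, and each window ran from 250 bases before to 50 bases after the transcript start. The stretches of 120 bases before the start are printed 5′ to 3′ for Ctsj, whose level differed most, for Ctss, which differed in opposite directions in the cotransductions, and for Ctsd, the most abundant member. They lie at chr13:61005926-61006045 on the minus strand for Ctsj, at chr3:95526666-95526785 on the plus strand for Ctss and at chr7:142387828-142387947 on the minus strand for Ctsd, in the GRCm38.p6 build. Capitals mark a match to TCACGTGA, the palindrome at the core of the CLEAR element that TFEB and its relatives bind, or to the core of the interferon response element, GAAA repeated after a gap of 2 bases.
Ctsj: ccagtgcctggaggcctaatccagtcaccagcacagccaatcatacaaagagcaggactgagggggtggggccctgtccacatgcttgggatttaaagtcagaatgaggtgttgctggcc
Ctss: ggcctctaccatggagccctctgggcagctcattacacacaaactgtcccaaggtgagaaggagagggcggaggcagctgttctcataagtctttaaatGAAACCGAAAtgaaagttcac
Ctsd: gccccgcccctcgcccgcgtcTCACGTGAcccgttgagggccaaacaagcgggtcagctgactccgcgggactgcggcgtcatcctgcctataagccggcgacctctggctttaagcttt

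Searched on both strands of the 300-base windows, TCACGTGA was in those of Ctsa and Ctsd, 2 of the 8 member genes, and in 1.12% of 27025 genes. In the Ctsd stretch above it begins at position -99, counted back from the transcript start. CACGTG, the E-box inside that palindrome, was also in the Ctsl window, so 3 of 8 members held it, against 8.09% of all genes. The interferon response element core was in the Ctss window alone among the members, at position -21, and in 3.99% of all genes. GAGGAAGT, a form of the PU.1 site, was in the windows of Ctsc and Ctss and in 3.69% of all genes. None of the 4 motifs was in the Ctsj window, which says only that these letters are not in those 300 bases.

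In the MLL-AF9 cotransduction all 10 cathepsins passed the expression filter (at least 1 FPKM in at least 2 of 4 libraries), and in none did the groups overlap: 8 were higher with PRDM16 and 2, Ctsl and Ctsk, were lower. Groups that did not overlap were the rule in this table, at 86.3% of the 11071 genes that passed (43.6% with PRDM16 higher and 42.7% with PRDM16 lower), and limma called 69.5% of them (35.6% higher, 34% lower). The median log2 fold change of the members was 0.95, against 0.0062 over all genes that passed. Their summed level was 4108 and 4430 FPKM with PRDM16, against 1973 and 1962 FPKM in the PRDM16mut libraries.

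In the E2A-HLF cotransduction 8 members could be tested, since Ctsh and Ctsk stayed below the filter. Ctsa, Ctsc, Ctsd and Ctsz rose with PRDM16, Ctsj, Ctsl and Ctss fell, and Ctsb did not pass the test (limma on log2(FPKM + 1), called below 0.05 after Benjamini-Hochberg adjustment over 11010 genes). The share called over all genes was 43.8%, made up of 22.7% higher and 21.1% lower. The groups did not overlap for any of the 8, 4 higher and 4 lower, as for 73.7% of all genes (38.4% higher, 35.3% lower). The median log2 fold change of the 8 was 0.050, beside 0.011 over all genes tested. The summed level of the 10 members was 668 and 658 FPKM with PRDM16, against 459 and 478 FPKM with PRDM16mut.

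In the stable cells Ctsc and Ctsl rose and 0 members fell by limma, among 8 tested (0 also at an unadjusted p under 0.05); Ctsj and Ctsk were below the filter. The share called over the 10580 genes of that table was 6.36%, with 4.2% higher and 2.16% lower. The groups did not overlap for 7 of the 8, each with PRDM16 higher, and this was so for 60.6% of all genes (35.1% higher, 25.6% lower). The median of the 8 was 0.16, beside 0.015 over all genes tested. Among the genes called here 66% were higher, a share that was 50.7% under quantile normalization and 52.2% with median ratio size factors. Neither call held without the filter on low values (limma adjusted p = 0.0653 each). Ctsc was lost when any 1 of the 4 libraries was left out (adjusted p between 0.0679 and 0.151), and Ctsl was lost without either PRDM16 library or without PRDM16mut replicate 1 (between 0.0535 and 0.0796). The summed level was 1071 and 1032 FPKM with PRDM16, against 978 and 1007 FPKM with PRDM16mut.

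Over the 6 groups, 8 of the 10 members had their highest mean in the MLL-AF9 cotransduction with PRDM16; Ctsk and Ctsl had theirs in the same experiment with PRDM16mut. The lowest mean of 8 members was in an E2A-HLF group, and that of Ctsc and Ctsj in a stable group. Neighbours in the order of group means did not overlap, except for Ctsz, whose means of 347 FPKM in the stable cells with PRDM16, 349.9 FPKM in those with PRDM16mut and 349 FPKM in the MLL-AF9 cotransduction with PRDM16mut lay together, and for Ctsk in the E2A-HLF groups. The ratio of the highest to the lowest group mean was 3.04 for Ctsa, 4.15 for Ctsc, 7.35 for Ctsl, 8.02 for Ctsz, 8.31 for Ctsd, 15.6 for Ctsb and 93.2 for Ctss. These orders cross tables that were normalized separately and, for the MLL-AF9 cotransduction, list partly other symbols, and they are descriptions.

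**Figure D1:**
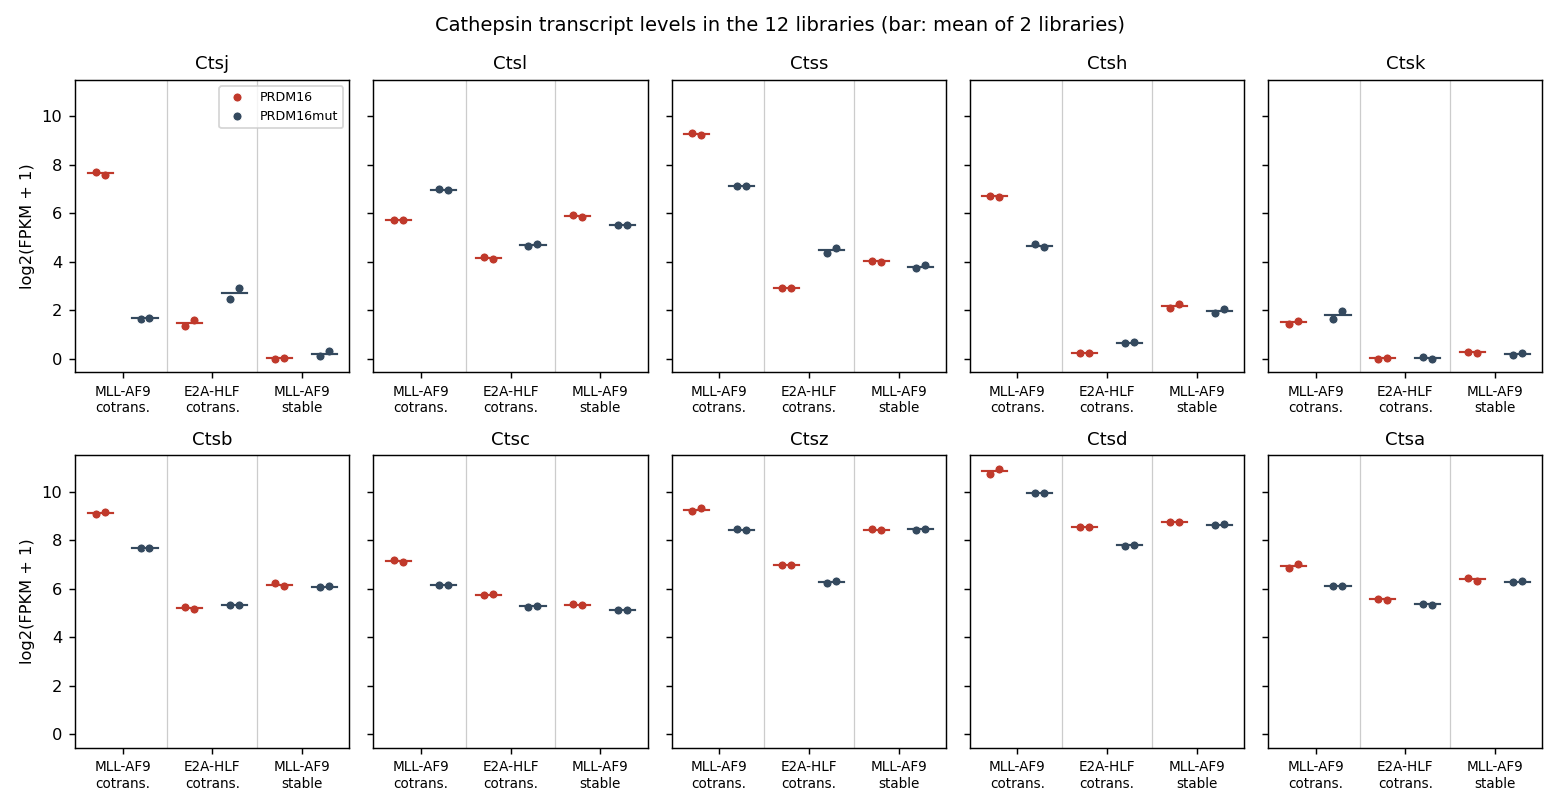
Levels of the 10 cathepsins as log2(FPKM + 1), 1 point per library and a bar at the mean of 2 libraries, with PRDM16 left of PRDM16mut in each experiment. Ctsj reached 209 and 190 FPKM in the PRDM16 libraries of the MLL-AF9 cotransduction and at most 6.56 FPKM in the other 10 libraries; Ctsd was the most abundant member in all 6 groups.

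**Figure D2:**
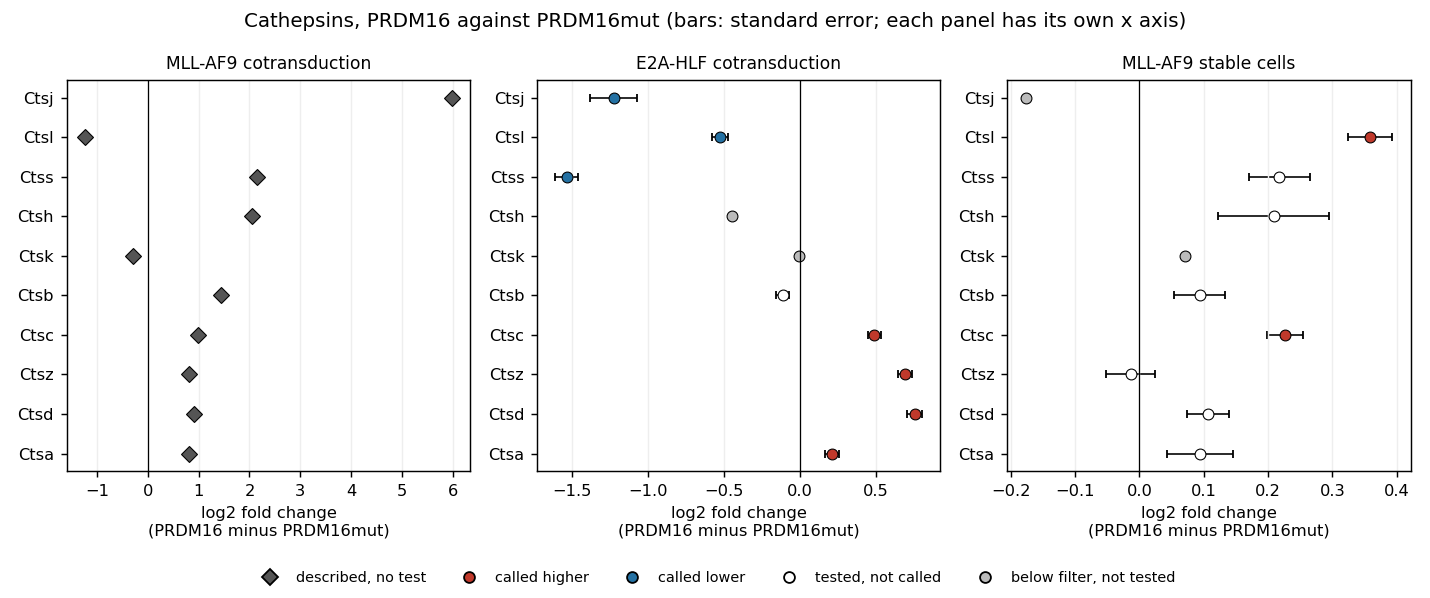
Log2 fold change of each cathepsin, PRDM16 minus PRDM16mut, in the 3 experiments; bars are standard errors from limma, diamonds are described with no test, and each panel has its own x axis. In the middle panel Ctss, Ctsj and Ctsl lie left of 0 and Ctsd, Ctsz, Ctsc and Ctsa right of it.

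Ctsj encodes cathepsin J, a cysteine protease known from the mouse placenta. In the MLL-AF9 cotransduction it stood at 209 and 190 FPKM with PRDM16, against 2.16 and 2.17 FPKM in the PRDM16mut libraries. Both PRDM16 libraries were far above both PRDM16mut libraries, by a log2 fold change of 5.98 and a ratio of means of 92.1. Since this difference is the one Ctsj was chosen for, it is a description.

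With E2A-HLF, Ctsj lay the other way round, at 1.57 and 2.01 FPKM with PRDM16, against 4.59 and 6.56 FPKM in the PRDM16mut libraries. The groups did not overlap and Ctsj fell with PRDM16 (log2 fold change -1.22, SE 0.16, limma adjusted p = 0.00161), at low levels where the size of the change depended on the pseudocount: -1.57 with 0.1 and -0.63 with 5. In the stable cells it was listed at 0 and 0.034 FPKM with PRDM16, against 0.071 and 0.23 FPKM with PRDM16mut, below the filter in all 4 libraries. Over the 6 groups the order of the mean levels was MLL-AF9 cotransduction with PRDM16 (199 FPKM), E2A-HLF with PRDM16mut (5.57), MLL-AF9 cotransduction with PRDM16mut (2.16), E2A-HLF with PRDM16 (1.79), then the stable cells with PRDM16mut (0.15) and with PRDM16 (0.017). No neighbours in that order overlapped.

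The 4 chromosomal neighbours of Ctsj on chromosome 13 differed among themselves. Ctla2a, which encodes an inhibitor related to cathepsin propeptides, stood at 32.5 and 27.6 FPKM with PRDM16, against 55.1 and 54.4 FPKM with PRDM16mut in the MLL-AF9 cotransduction. Ctla2a rose with PRDM16 in the E2A-HLF cotransduction, with 7.08 and 7.44 FPKM against 4.06 and 3.69 FPKM in PRDM16mut libraries (log2 fold change 0.76, SE 0.065, limma adjusted p = 3.16e-04). In both cotransductions it thus differed in the direction opposite to Ctsj. Tpbpa, a trophoblast gene, was listed at 0 in all 12 libraries, and Ctsq, another placental cathepsin, at no more than 0.025 FPKM. Ctsr, a further placental cathepsin, was at 2.14 and 2.53 FPKM in the PRDM16 libraries of the MLL-AF9 cotransduction, against 0.021 and 0 FPKM in its PRDM16mut libraries. It thus had the direction of Ctsj there at a far lower level, and was at or below 0.043 FPKM in the E2A-HLF libraries and at 0 in the stable ones.

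Of the remaining placental cathepsins Cts3, Cts6, Cts7, Ctsm and Ctsll3 were listed at 0 in every library, and Cts8 at no more than 0.085 FPKM. Of the 12 trophoblast markers none passed the filter in any table, their sum was at most 1.23 FPKM in a library, and Prl3d1, Prl3b1, Tpbpa, Tpbpb and Hand1 were at 0 throughout. Syna made up most of that highest sum. It was at 0.792 and 1.12 FPKM with PRDM16 in the MLL-AF9 cotransduction, against 0.264 and 0.168 FPKM with PRDM16mut, the direction of Ctsj. Ascl2 went the other way there, at 0.054 and 0.050 FPKM with PRDM16, against 0.183 and 0.205 FPKM with PRDM16mut. Reads from a related gene were looked for by sequence: none of the 1471 windows of 50 bases in the Ctsj transcripts of GENCODE vM21 was found in a transcript of another gene, and the same was true of the 1365 windows of Ctsr.

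Among 11479 genes expressed in at least 2 libraries, the 5 closest to Ctsj in pattern over the 12 libraries were Pdcd1, H2-Aa, Pdzk1ip1, Clec7a and H2-Eb1. Likeness was the root mean square difference of centred log2(FPKM + 1), which ran from 0.681 for Pdcd1 to 0.73 for H2-Eb1. Pdcd1, the inhibitory receptor PD-1, was at 56.4 and 62.5 FPKM with PRDM16, against 0.736 and 0.825 FPKM with PRDM16mut in the MLL-AF9 cotransduction. H2-Aa, a chain of MHC class II, was at 199 and 217 FPKM with PRDM16, against 8.35 and 8.63 FPKM with PRDM16mut. Like Ctsj, both were lower with PRDM16 in the E2A-HLF cotransduction. Pdcd1 was at 1.67 and 1.80 FPKM there, against 6.73 and 6.08 FPKM with PRDM16mut. H2-Aa was at 0.885 and 0.878 FPKM, against 8.69 and 10.5 FPKM with PRDM16mut. The 5 genes were picked for likeness over these same 12 libraries, so shared directions largely follow from the choice and are no separate result. Of the other members Ctss came nearest, with a difference of 1.49 and rank 60, and Ctsl was farthest, with 2.71 and rank 7557.

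**Figure D3:**
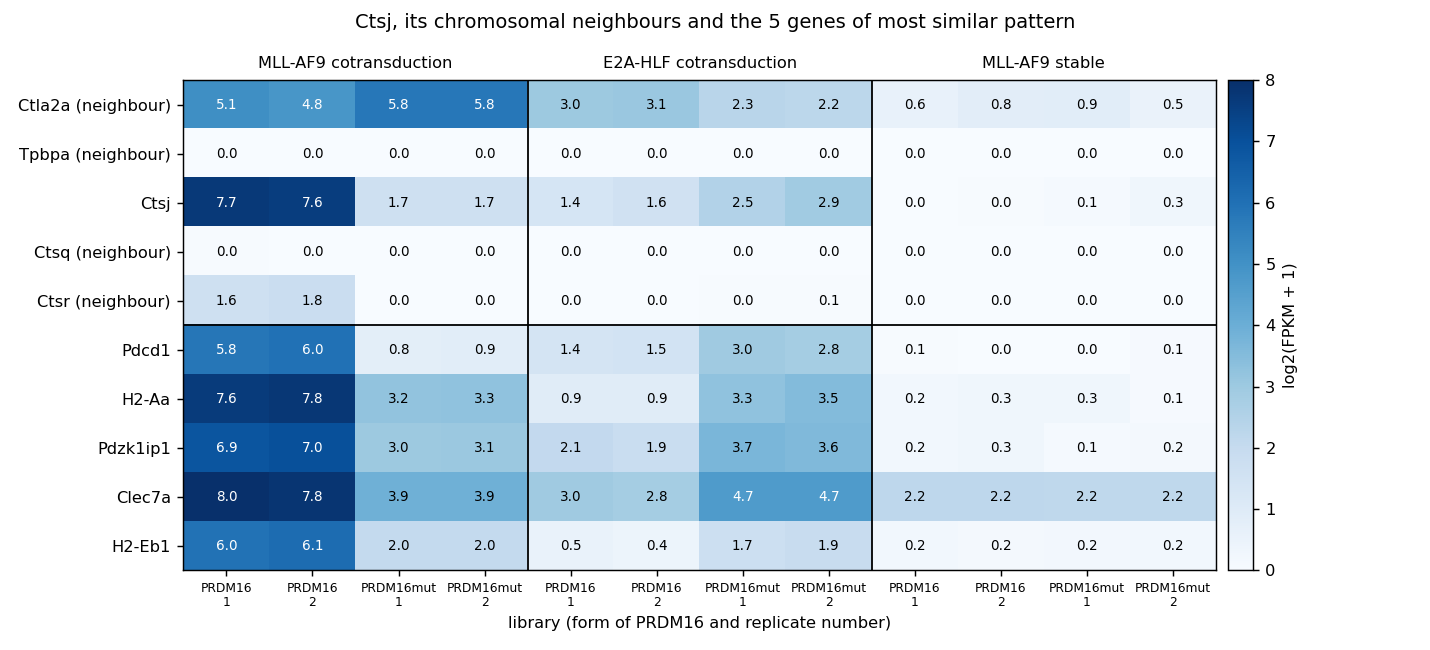
Heat map of log2(FPKM + 1) in the 12 libraries for Ctsj, its 4 neighbours on the chromosome and the 5 genes closest to it in pattern; columns are libraries by form of PRDM16 and replicate number. Ctsj and the 5 genes of like pattern are darkest in the PRDM16 libraries of the MLL-AF9 cotransduction, while Ctla2a is darkest in the PRDM16mut libraries of that experiment.

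Ctss encodes cathepsin S, which cuts the invariant chain in antigen-presenting cells. It was at 633 and 604 FPKM in the PRDM16 libraries of the MLL-AF9 cotransduction, against 139 and 140 FPKM in the PRDM16mut libraries, a log2 fold change of 2.14. It fell with PRDM16 in the E2A-HLF cotransduction, with 6.66 and 6.62 FPKM, against 19.6 and 22.7 FPKM in the PRDM16mut libraries (log2 fold change -1.53, SE 0.075, limma adjusted p = 3.62e-05). This was the strongest call among the members, and the groups were far apart in both cotransductions. Ctss in the stable cells had 15.3 and 15.0 FPKM with PRDM16, against 12.3 and 13.4 FPKM with PRDM16mut (log2 fold change 0.22, limma adjusted p = 0.0599), and it passed the threshold only with median ratio size factors (adjusted p = 0.0483).

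Cd74, the invariant chain itself, had the same directions as Ctss. It was at 897 and 977 FPKM with PRDM16, against 28.9 and 30.1 FPKM with PRDM16mut in the MLL-AF9 cotransduction. Beside E2A-HLF it fell to 4.14 and 4.93 FPKM with PRDM16, against 18.8 and 21.3 FPKM with PRDM16mut (log2 fold change -1.93, SE 0.091, limma adjusted p = 3.26e-05). Dendritic cell markers, the other antigen-presenting type examined, summed to 10.9 and 11.2 FPKM with PRDM16, against 0.446 and 0.555 FPKM with PRDM16mut in the MLL-AF9 cotransduction, and to 5.84 and 5.65 FPKM with PRDM16, against 31.6 and 31.5 FPKM with PRDM16mut in the E2A-HLF cotransduction. Ccr7 and Itgax made up most of the first sum and Flt3 most of the second, 2 and 3 of the 8 markers passed the filter, and Siglech and Cd209a were at 0 in the MLL-AF9 cotransduction. With E2A-HLF, limma called Flt3 and Clec9a lower and Itgax higher (log2 fold change 0.25, adjusted p = 0.0276). Over all genes there it called 21.1% lower and 22.7% higher. The part of these cells in the Ctss difference was not tested.

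Ctsl encodes cathepsin L, a broad endopeptidase that trims the invariant chain in the thymus. Of the 2 members that were lower with PRDM16 in the MLL-AF9 cotransduction it had the larger difference, at 52.3 and 51.7 FPKM with PRDM16, against 125 and 122 FPKM with PRDM16mut (log2 fold change -1.24). It also fell with PRDM16 in the E2A-HLF cotransduction, with 17.4 and 16.3 FPKM, against 24.0 and 25.4 FPKM with PRDM16mut (log2 fold change -0.53, SE 0.053, limma adjusted p = 6.25e-04). It rose, by contrast, in the stable cells, with 59.2 and 56.4 FPKM, against 44.6 and 45.1 FPKM with PRDM16mut (log2 fold change 0.36, SE 0.034, limma adjusted p = 0.012). Ctsl and Ctsj are both on chromosome 13, 32 genes apart. In GENCODE vM21 26.3% of the 50-base windows of Ctsl are shared with another gene, mostly Gm47123, so part of its reads could have been assigned elsewhere.

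Ctsb, Ctsh and Ctsz encode cysteine cathepsins that also act as exopeptidases. Ctsb was at 548 and 581 FPKM with PRDM16, against 208 FPKM in both PRDM16mut libraries of the MLL-AF9 cotransduction (log2 fold change 1.44). Its E2A-HLF levels were 36.7 and 35.5 FPKM with PRDM16, against 39.0 and 39.2 FPKM with PRDM16mut (log2 fold change -0.11, SE 0.042, limma adjusted p = 0.0747). It was thus close to level there and not called, although the groups did not overlap, and quantile normalization brought it past the threshold (adjusted p = 0.0136). Ctsb in the stable cells had 73.9 and 69.3 FPKM with PRDM16, against 66.2 and 67.7 FPKM with PRDM16mut (log2 fold change 0.094, SE 0.040, limma adjusted p = 0.189).

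Ctsh, an aminopeptidase, had 105 and 102 FPKM with PRDM16, against 25.4 and 23.2 FPKM with PRDM16mut in the MLL-AF9 cotransduction, a log2 fold change of 2.05. It was below 1 FPKM in the E2A-HLF libraries, with 0.165 and 0.163 FPKM with PRDM16, against 0.547 and 0.628 FPKM with PRDM16mut, and had 3.32 and 3.78 FPKM with PRDM16, against 2.68 and 3.20 FPKM with PRDM16mut in the stable cells (log2 fold change 0.21, limma adjusted p = 0.183). The ratio of its highest to its lowest group mean was 630. Ctsz, a carboxypeptidase, had 585 and 649 FPKM with PRDM16, against 352 and 345 FPKM with PRDM16mut in the MLL-AF9 cotransduction. It rose with PRDM16 in the E2A-HLF cotransduction, with 126 and 124 FPKM, against 74.5 and 79.4 FPKM with PRDM16mut (log2 fold change 0.69, SE 0.048, limma adjusted p = 1.46e-04). The groups of Ctsz overlapped in the stable cells, at 353 and 340 FPKM with PRDM16, against 343 and 357 FPKM with PRDM16mut.

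Ctsk encodes the collagenase of osteoclasts. It was the lowest member in the MLL-AF9 cotransduction with PRDM16, at 1.72 and 1.96 FPKM, against 2.09 and 2.96 FPKM with PRDM16mut, and was at or below 0.204 FPKM in the other 8 libraries. Osteoclast markers summed to 85.4 and 90.1 FPKM with PRDM16, against 46.3 and 46.5 FPKM with PRDM16mut in the MLL-AF9 cotransduction, with Atp6v0d2 the largest, while Calcr and Ocstamp were at 0. Ctsk and Ctss lie next to each other on chromosome 3, and their levels were far apart: in the PRDM16 libraries of the MLL-AF9 cotransduction Ctss was at 633 and 604 FPKM. The part of osteoclasts in these levels was not tested.

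Ctsc encodes dipeptidyl peptidase I, which activates the serine proteases of neutrophil, mast cell and lymphocyte granules. It had 146 and 137 FPKM with PRDM16, against 70.7 and 70.2 FPKM with PRDM16mut in the MLL-AF9 cotransduction. It rose with PRDM16 in the E2A-HLF cotransduction, at 53.5 and 53.6 FPKM, against 36.9 and 38.7 FPKM with PRDM16mut (log2 fold change 0.49, SE 0.044, limma adjusted p = 3.79e-04). It rose in the stable cells too, at 40.3 and 39.7 FPKM, against 34.2 and 33.9 FPKM with PRDM16mut (log2 fold change 0.23, SE 0.028, limma adjusted p = 0.0208). Ctsc was higher with PRDM16 in all 3 experiments, with no overlap between the groups. The same held for Ctsa and Ctsd, although neither was called in the stable cells. How many of all genes do the same was not counted.

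The proteases that cathepsin C activates differed in direction among themselves. Elane, neutrophil elastase, had 13.1 and 14.3 FPKM with PRDM16, against 2697 and 2655 FPKM with PRDM16mut in the MLL-AF9 cotransduction, where Ctsc was higher. Prtn3 and Cma1, mast cell chymase, were lower there too. Prtn3 had 322 and 361 FPKM with PRDM16, against 1643 and 1623 FPKM with PRDM16mut. Cma1 had 0.725 and 0.625 FPKM with PRDM16, against 506 and 490 FPKM with PRDM16mut. Only Gzmb, granzyme B, went with Ctsc among these proteases there, at 489 and 481 FPKM with PRDM16, against 174 and 168 FPKM with PRDM16mut. Elane rose with Ctsc in the E2A-HLF cotransduction, at 56.6 and 56.0 FPKM with PRDM16, against 2.79 and 3.35 FPKM with PRDM16mut (log2 fold change 3.82, SE 0.073, limma adjusted p = 1.42e-06). Gzmb also rose there (log2 fold change 0.32, limma adjusted p = 0.00511), Cma1 fell at about 1 FPKM (log2 fold change -0.80, limma adjusted p = 0.00207), and Prtn3 was not called (adjusted p = 0.433). Limma called 22.7% of all genes higher and 21.1% lower with E2A-HLF, and 4.2% and 2.16% in the stable cells. Of the 8 clients and partners of cathepsins examined, 4 rose and 3 fell in the E2A-HLF cotransduction (median log2 fold change 0.13), and in the stable cells 1 of 6 tested rose, Psap (log2 fold change 0.21, limma adjusted p = 0.0369), a call lost when any 1 of the 4 libraries was left out.

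Ctsd, the aspartic protease, was the most abundant member in all 6 groups. It had 1714 and 1986 FPKM with PRDM16, against 979 and 980 FPKM with PRDM16mut in the MLL-AF9 cotransduction. It rose in the E2A-HLF cotransduction, with 380 and 373 FPKM, against 219 and 226 FPKM with PRDM16mut (log2 fold change 0.76, SE 0.048, limma adjusted p = 1.04e-04), the largest rise among the members there. The stable libraries had 438 and 428 FPKM with PRDM16, against 397 and 407 FPKM with PRDM16mut (log2 fold change 0.11, limma adjusted p = 0.113). In GENCODE vM21 32.4% of its 50-base windows are shared with Gm49369.

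Ctsa encodes the serine carboxypeptidase that protects beta-galactosidase (Glb1) and neuraminidase (Neu1) in a complex. It had 114 and 129 FPKM with PRDM16, against 69.2 and 68.6 FPKM with PRDM16mut in the MLL-AF9 cotransduction. It rose in the E2A-HLF cotransduction, with 47.2 and 45.9 FPKM, against 40.8 and 39.4 FPKM with PRDM16mut (log2 fold change 0.21, SE 0.043, limma adjusted p = 0.0108), a call that was lost without PRDM16 replicate 1 (adjusted p = 0.0598). Its partners rose with it there, Neu1 by a log2 fold change of 0.76 (SE 0.057, limma adjusted p = 1.85e-04) and Glb1 by 0.33 (SE 0.039, limma adjusted p = 0.0012). In the MLL-AF9 cotransduction Glb1 was higher with PRDM16, at 84.7 and 96.8 FPKM against 38.7 and 39.5 FPKM with PRDM16mut, and Neu1 lower, at 19.2 and 22.6 FPKM against 43.3 and 42.6 FPKM. In the stable libraries Ctsa had 87.5 and 79.2 FPKM with PRDM16, against 77.1 and 78.8 FPKM with PRDM16mut. None of the 3 genes was called there (limma adjusted p = 0.283 for Ctsa, 0.452 for Glb1 and 0.964 for Neu1), beside 6.36% of all genes.

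Among the cathepsins that are not members, Ctsg, a serine protease of neutrophil granules, had the widest differences. It was at 67.0 FPKM in both PRDM16 libraries of the MLL-AF9 cotransduction, against 1056 and 1061 FPKM with PRDM16mut. It rose in the E2A-HLF cotransduction, with 241 and 233 FPKM, against 9.58 and 10.5 FPKM with PRDM16mut (log2 fold change 4.43, SE 0.054, limma adjusted p = 3.79e-07). Ctsf rose by 0.49 (adjusted p = 0.00137) and Ctso fell by 0.49 (adjusted p = 0.0022) in the same limma fit, both at low levels. So 2 of 3 tested rose and 1 fell, with a median log2 fold change of 0.49, beside 22.7% and 21.1% of all genes. Neither Ctsg nor Ctso was called in the stable cells (limma adjusted p = 0.385 and 0.402), and neither had an unadjusted p under 0.05.

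Several stefin genes had log2 fold changes larger in size than any member in the cotransductions. In the MLL-AF9 cotransduction these were Stfa2 (-7.60), Stfa2l1 (-7.10) and Stfa3 (-6.82), with their close copy BC100530 at -7.31 and Ctsj at 5.98. Stfa1, a stefin A that blocks cysteine cathepsins in the cytosol, was at 110 and 81.1 FPKM with PRDM16 there, against 3835 and 3836 FPKM with PRDM16mut. Its log2 fold change of -5.33 was smaller in size than that of Ctsj. With E2A-HLF it rose, at 820 and 764 FPKM, against 11.97 and 12.16 FPKM with PRDM16mut (log2 fold change 5.92, SE 0.050, limma adjusted p = 1.8e-07). It was level in the stable cells, at 623 and 614 FPKM with PRDM16, against 609 and 632 FPKM with PRDM16mut. In each cotransduction Stfa1 thus differed in the direction opposite to Ctsj and Ctss.

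Of 11 inhibitors tested with E2A-HLF, 9 rose and 1 fell, beside 22.7% higher and 21.1% lower over all genes tested. The median log2 fold change of the inhibitors was 2.68. Stfa2, Stfa2l1, Stfa3 and BC117090 reached the filter there only through their PRDM16 libraries, so their rise partly follows from the filter. The smallest p-values were those of Stfa1, BC100530 (6.22, limma adjusted p = 5.39e-07), Cst7 (2.68, adjusted p = 8.53e-07) and Stfa3 (4.94, adjusted p = 7.83e-06). Cst3, cystatin C, fell by 0.24 (limma adjusted p = 0.0148; 0.121 without PRDM16 replicate 2), and Ctla2b was not called (adjusted p = 0.109). In the MLL-AF9 cotransduction 2 of 11 were higher with PRDM16 and 9 lower, none with overlapping groups, with a median of -4.09. Groups did not overlap for 86.3% of all genes there, 43.6% higher and 42.7% lower. Of 9 tested in the stable cells 1 rose, Stfa2 (log2 fold change 0.25, limma adjusted p = 0.0396), with a median of 0.12, and that call was lost when any 1 library was left out. Over all genes of the stable cells 4.2% were called higher and 2.16% lower. The stefin A genes and BC100530 are close copies of each other, so the split of reads between them is uncertain and their calls are not separate results.

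Summed, the inhibitors stood at 1404 and 1412 FPKM with PRDM16, against 8789 and 8774 FPKM with PRDM16mut in the MLL-AF9 cotransduction, and at 1803 and 1735 FPKM with PRDM16, against 421 and 443 FPKM with PRDM16mut in the E2A-HLF cotransduction. The 8 neutrophil markers moved beside them. Their sum was 774 and 674 FPKM with PRDM16, against 50989 and 49936 FPKM with PRDM16mut in the MLL-AF9 cotransduction, all 8 lower. With E2A-HLF it was 1117 and 1059 FPKM with PRDM16, against 64.1 and 67.1 FPKM with PRDM16mut, and 6 of 6 tested were higher. Camp and Ltf were below 1 FPKM in all 4 libraries there, and Ngp and Cebpe passed the filter only through their PRDM16 libraries. Neutrophil markers in the stable cells summed to 11997 and 12130 FPKM with PRDM16, against 11387 and 11809 FPKM with PRDM16mut, 2 of 8 lower. Mast cell markers also differed: their sum in the MLL-AF9 cotransduction was 105 and 97.5 FPKM with PRDM16, against 2135 and 2117 FPKM with PRDM16mut, all 6 lower. With E2A-HLF that sum was 118 and 113 FPKM with PRDM16, against 86.8 and 91.4 FPKM with PRDM16mut, where 3 of 4 tested rose and Cma1 fell. Erythroid markers summed to 1092 and 647 FPKM with PRDM16, against 148 and 86.7 FPKM with PRDM16mut in the MLL-AF9 cotransduction, all 5 above the filter higher. Their E2A-HLF sum was 351 and 178 FPKM with PRDM16, against 632 and 416 FPKM with PRDM16mut, where 2 of 7 rose and 1 fell. Beside these marker counts, limma called 22.7% of all genes higher and 21.1% lower with E2A-HLF, and 4.2% and 2.16% in the stable cells. Groups did not overlap for 86.3% of all genes in the MLL-AF9 cotransduction, 43.6% higher and 42.7% lower. The part of these cell types in the differences of the cathepsins, of Elane and of the inhibitors was not tested.

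**Figure D4:**
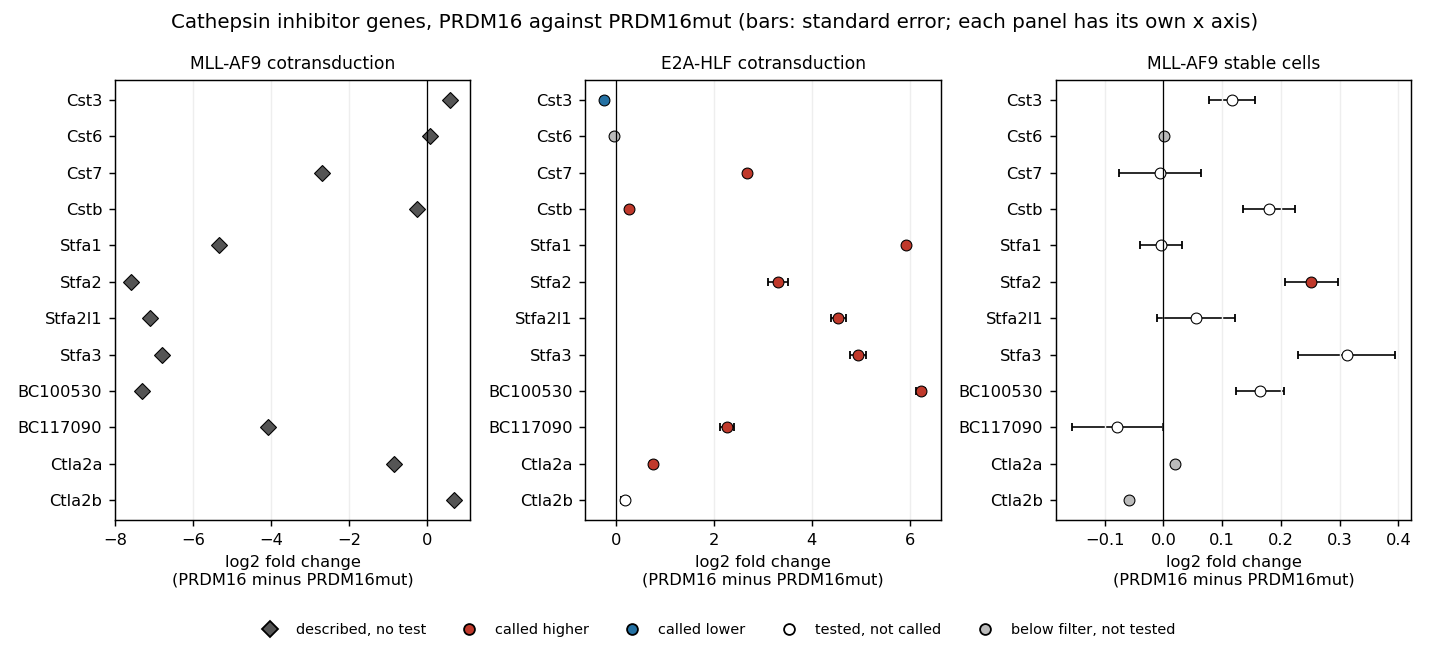
Log2 fold change of 12 cathepsin inhibitor genes, PRDM16 minus PRDM16mut, in the 3 experiments; bars are standard errors from limma, diamonds are described with no test, and each panel has its own x axis. Most stefin A genes lie far left of 0 in the MLL-AF9 cotransduction and far right of it in the E2A-HLF cotransduction, and in the stable cells no value lies farther than 0.31 from 0.

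Genes that carry cathepsins to the lysosome and mature them gave a mixed picture. In the MLL-AF9 cotransduction 3 of 10 were higher with PRDM16 and 6 lower, with no overlap between the groups. Over all genes there these shares were 43.6% and 42.7%. The median log2 fold change of the 10 was -0.13. Sort1 and Igf2r were among the lower genes, with log2 fold changes of -2.11 and -1.51. Lgmn, the asparaginyl endopeptidase that cuts mature cathepsins into their chains, had 213 and 228 FPKM with PRDM16, against 43.4 and 44.3 FPKM with PRDM16mut in the MLL-AF9 cotransduction. With E2A-HLF it fell, at 0.849 and 0.784 FPKM, against 6.51 and 6.95 FPKM with PRDM16mut (log2 fold change -2.09, SE 0.065, limma adjusted p = 6.37e-06), the same directions as Ctsj and Ctss. Igf2r, the large mannose 6-phosphate receptor, fell there by 1.42 (limma adjusted p = 3.03e-05), and the adaptor Gga2 by 0.52 (adjusted p = 3.26e-04), while Nagpa, which uncovers the mannose 6-phosphate tag, rose by 0.44 (adjusted p = 8.62e-04). In all, 2 of 10 rose and 4 fell, beside 22.7% and 21.1% of all genes. The median of the 10 was 0.076, and M6pr, the small receptor, was not called (limma adjusted p = 0.0955). In the stable cells, where 2.16% of all genes fell, 2 of 10 fell, Igf2r by 0.22 and Gga3 by 0.19 (limma adjusted p = 0.0475 each). The median of the 10 was -0.059. The calls of Igf2r and Gga3 were both lost when any 1 of the 4 libraries was left out.

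The MiT factors Tfeb, Tfe3, Tfec and Mitf bind the CLEAR element of lysosomal genes. In the E2A-HLF cotransduction 1 of the 4 was called, beside 43.8% of all genes. It was Tfec, which fell by 0.25 (limma adjusted p = 0.00742), and the median of the 4 was -0.016. Limma called 0 of the 4 in the stable cells, beside 6.36% of all genes, while Tfec and Tfe3 had an unadjusted p under 0.05. With median ratio size factors 1 of the 4 was called there, beside 927 of all 10580 genes. In the MLL-AF9 cotransduction Tfeb had 11.7 and 13.6 FPKM with PRDM16, against 7.45 and 6.78 FPKM with PRDM16mut, and Tfec 31.5 and 26.5 FPKM with PRDM16, against 95.6 and 99.5 FPKM with PRDM16mut.

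Macrophages are rich in cathepsins, and macrophage markers differed in the cotransductions too. Their sum was 4615 and 4713 FPKM with PRDM16, against 2044 and 2057 FPKM with PRDM16mut in the MLL-AF9 cotransduction, with 11 of 13 markers above the filter higher with PRDM16 and Mrc1 and Msr1 lower. With E2A-HLF it was 405 and 376 FPKM with PRDM16, against 83.9 and 84.9 FPKM with PRDM16mut. There 5 of 6 tested rose and Mpeg1 fell, while Csf1r, C1qa, C1qb, C1qc and Msr1 were below 0.3 FPKM and Marco was at 0. The sum in the stable cells was 218 and 226 FPKM with PRDM16, against 191 and 190 FPKM with PRDM16mut, and 2 of 11 rose, Lyz2 and Cd14. Lyz2 alone made up 294 and 270 FPKM of the E2A-HLF sum with PRDM16, against 29.0 and 29.2 FPKM with PRDM16mut. Over all genes limma called 22.7% higher and 21.1% lower with E2A-HLF, and 4.2% and 2.16% in the stable cells. In the MLL-AF9 cotransduction 43.6% of all genes were higher and 42.7% lower with no overlap between the groups. The part of macrophages in the cathepsin differences was not tested. Stromal markers summed to at most 2.60 FPKM in any library.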

How the data were processed

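Per the submitters' processing notes, reads were handled with Bowtie2 2.0.0.7, TopHat2 2.0.3 and Cuffdiff, named without a version, on the mm9 build. Per the labels, RNA was extracted with Trizol, cleaned on a column and made into TruSeq libraries from oligo(dT)-primed cDNA. The authors deposited FPKM per gene symbol in 3 tables of 23309, 23235 and 23235 entries. Neither their annotation and scaling between libraries nor the total depth is stated, so no counting interval was computed. Relative depth was read from the steps between low values of replicate libraries, ratios of whole numbers up to 6 within 0.5%.

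Each table was fitted alone in R 4.3.3 with limma 3.58.1 on log2(FPKM + 1), PRDM16 minus PRDM16mut, 2 libraries against 2, with a variance trend and two-sided tests. The test took genes with 1 FPKM or more in 2 or more libraries of a table. P-values were adjusted by Benjamini-Hochberg over these genes, and a gene was called below 0.05. A gene could pass this filter through 1 group alone, the one where it was higher, and its direction then partly follows from the filter. The smallest p that an exact permutation of 2 against 2 libraries allows is 0.333, so the calls rest on the variance limma shares across genes. No label says that replicates were separate cultures, so the p-values measure only the spread between libraries, possibly technical. Sample titles number the replicates 1 and 2 in every group; deviations of same-numbered libraries correlated at 0.067, 0.289 and 0.319, and the main fit has no block. The fit was also run on simulated tables with independent noise between libraries and fewer changed genes than were called here. That setting differs from the real tables, so the run does not show how many of these calls are false.

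The members and the gene lists were chosen with earlier results of these data known. All 10 members are named; from the other lists, called genes were named, up to 4 of smallest p per list and table, besides marker genes listed at 0, the 2 genes on each side of Ctsj, and the 5 genes closest to Ctsj in pattern. Values named for other list genes were chosen after they were seen. Promoters are from RefSeq (GRCm38.p6) and transcripts from GENCODE vM21, and no coordinate was taken from the files. Pseudocounts of 0.1 and 5, other filters, scalings and variance models, a replicate block and each library left out were tried.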

Additional observations from a re-analysis of the deposited data

Results flagged for a closer look

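Among members above the expression filter in both experiments compared, 4 moved in opposite directions, with every PRDM16 library above every PRDM16mut library in 1 experiment and below in the other. How many of all genes do the same was not counted, so the 4 cannot be set against a background. Groups that did not overlap made up 86.3% of all genes in the MLL-AF9 cotransduction, 73.7% in the E2A-HLF cotransduction and 60.6% in the stable cells. The values below are differences between the log2 fold changes of 2 experiments. These differences were not tested, and the tables were normalized separately. For Ctsj the log2 fold change in the MLL-AF9 cotransduction was 7.21 above that in the E2A-HLF cotransduction (5.98 and -1.22). For Ctss it was 3.68 above (2.14 and -1.53), and in the E2A-HLF cotransduction Ctss differed from the stable cells by -1.75. For Ctsl the MLL-AF9 cotransduction differed from the stable cells by -1.59 and the E2A-HLF cotransduction from the stable cells by -0.884. For Ctsb the MLL-AF9 cotransduction was 1.55 above the E2A-HLF cotransduction, and the E2A-HLF cotransduction differed from the stable cells by -0.206, where limma called Ctsb in neither experiment. Ctsh, Ctsk and, between the MLL-AF9 cotransduction and the stable cells, Ctsj also lay in opposite directions, but each was below the filter in 1 of the experiments compared.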

How the results depend on the processing

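In the E2A-HLF cotransduction 7 members were called, and 6 to 8 were called in every alternative tried (6 to 7 with 1 library left out). In the stable cells 2 were called, 0 without a filter on low values, 3 with median ratio size factors, and 0 to 1 with 1 library left out, where over all genes 65 to 139 were called in place of 673 (41 with no filter). With 1 library left out, the lone library of a group is assumed to vary like the others. The direction of Ctsz in the stable cells turned without PRDM16 replicate 2 (0.0134) and without PRDM16mut replicate 2 (0.0153), and it was called in neither case; with 1 library left out it ran from -0.0423 to 0.0153. The log2 fold change of Ctsj in the MLL-AF9 cotransduction was 6.46 with a pseudocount of 0.1 and 4.83 with 5, as a larger pseudocount shrinks the change of a low group, and 5.91 to 6.05 with 1 library left out. That of Ctsj in the E2A-HLF cotransduction was -1.01 to -1.44 with 1 library left out. With the replicate block 7 and 2 members were called, and 4354 and 664 genes of the tables in place of 4822 and 673; the numbers pair only 2 libraries per table and are shared as numbers alone. Depth is unknown, so levels near 0 could not be given a limit.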
